A study of Zea mays subsp. mexicana with 6 samples.

Results

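The 2 unigenes annotated as aquaporin PIP1-5, c56750_g3 and c35748_g1, were described in teosinte (Zea mays subsp. mexicana, cultivar 8493), a wild relative of maize. A unigene is a gene as rebuilt from the reads by de novo assembly. The study itself named both as aquaporins raised in drought, and they were taken here by those names from the 184280 unigenes of the expression table, whose values are FPKM, the fragments assigned to a unigene relative to its length and to all mapped fragments of that library. Both had PIP1-5 of maize as their best hit in the annotation supplied with the study, which listed 48 aquaporin unigenes, these 2 included.

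Seedlings were 13 days past germination and fell into 3 groups of 2 libraries, each library made from roots, stems and leaves of randomly taken seedlings, 3 by the labels and at least 3 by the study's methods. The drought group was given Hoagland solution with 20% PEG2000 over 3 h, an osmotic treatment that lowers the water available to the roots. The cold group was kept at 4°C for 12 h, and the control group received no stress and stayed at 25°C. The treatments differed in length, so drought and cold were not compared at a matched time. The labels give no transgene or mutation for any group. Because all organs were pooled, fewer cells of a type and less RNA per cell cannot be told apart in any of these values.

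Aquaporins are membrane channels that let water, and in some cases other small molecules, cross cell membranes along a gradient. PIP proteins (plasma membrane intrinsic proteins) lie mainly in the plasma membrane and fall into a PIP1 and a PIP2 group. PIP2 proteins form efficient water channels on their own in frog oocytes, whereas maize PIP1 proteins generally need a PIP2 partner to reach the plasma membrane. TIP proteins lie mainly in the vacuolar membrane, NIP proteins resemble nodulin 26 and often carry solutes such as silicic acid, and SIP proteins are small channels of internal membranes. The reference annotation of maize B73 (Zm-B73-REFERENCE-NAM-5.0) has 1 protein-coding gene with the name PIP1-5, also called pip1e, pip4 and ZmPIP1-5. Assembled unigenes with the same best hit may be alleles, fragments or close copies, and reads can be divided between them by the estimation, so each is given alone and both are given summed.

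The 6 libraries summed to between 967046 and 993409 FPKM. Replicates of a group correlated across unigenes at Pearson r of 0.950 to 0.956 on the log2 scale. The table holds no read totals. The most frequent ratio of low FPKM values in control-1 to those in another library was 0.979 to 1.14 over the other 5 libraries. This ratio is not a measured depth. By the clean reads that the study's supplement lists per library, control-1 had the most. Relative to control, the median log2 fold change over the 38768 tested unigenes was 0.01 in drought and −0.18 in cold. The cold median depended on the processing, at 0.04 with no filter on low FPKM and 0.004 under median-of-ratios scaling between libraries. Unigenes at an FPKM of at least 1 numbered 55928 and 48945 in cold, against 43432 and 42849 in control.

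Both PIP1-5 unigenes were most abundant in drought, lower in cold and lowest in control. The FPKM of c56750_g3 was 352.25 and 292.21 in drought, 85.4 and 93.36 in cold, and 52.67 and 55.64 in control. The FPKM of c35748_g1 was 399.52 and 418.47 in drought, 117.5 and 91.98 in cold, and 59.83 and 59.01 in control. For both unigenes every drought library exceeded every cold library, which in turn exceeded every control library. The place of drought above control was set by how the pair was named. The share of all tested unigenes with this order was not counted. At an adjusted p under 0.05 by limma, 23.8% of them were higher in drought against cold and 14.8% higher in cold against control. The group means of c56750_g3 were 322 ± 42.5 in drought, 89.4 ± 5.63 in cold and 54.2 ± 2.1 in control (SD, n = 2 each). Those of c35748_g1 were 409 ± 13.4 in drought, 105 ± 18 in cold and 59.4 ± 0.580 in control (SD, n = 2 each).

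**Figure D1:**
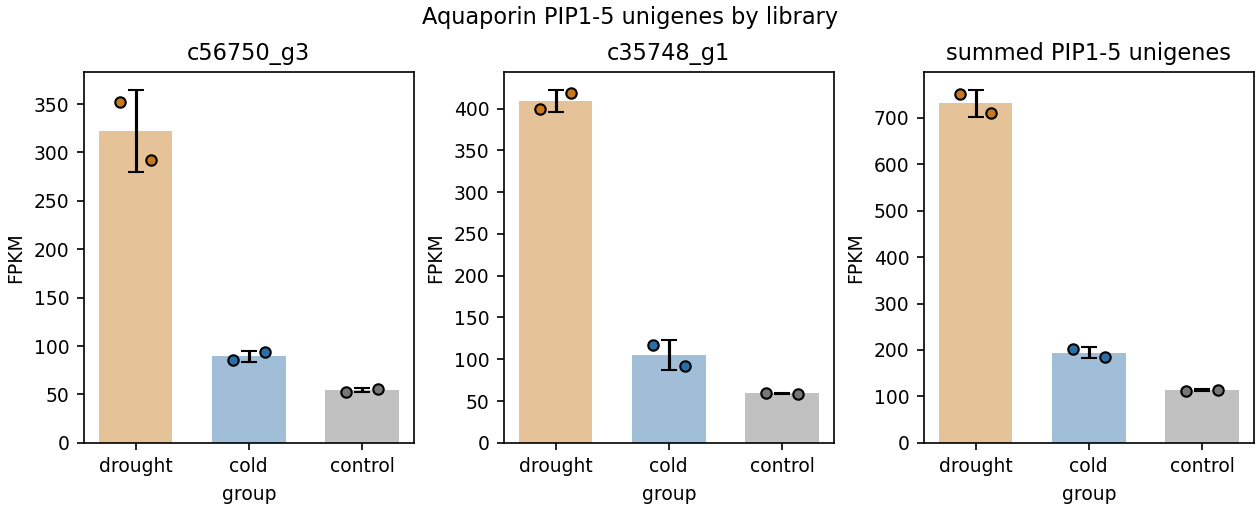
FPKM of c56750_g3, c35748_g1 and their sum (vertical axes, each from 0) in drought, cold and control. Points are libraries, bars are group means and error bars are SD of 2 libraries. In all 3 panels both drought points lie above both cold points, and both cold points lie above both control points.

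Summed over the pair, PIP1-5 reached 751.77 and 710.68 FPKM in drought, 202.9 and 185.34 in cold, and 112.5 and 114.65 in control. The mean sums were 731 ± 29.1 in drought, 194 ± 12.4 in cold and 114 ± 1.52 in control (SD, n = 2 each). The drought mean was 6.44 times that of control, with ratios between single libraries of 6.20 to 6.68. The cold mean was 1.71 times that of control, with ratios of 1.62 to 1.80. The drought mean was 3.77 times that of cold, with ratios of 3.50 to 4.06. No test was made on the sum, since an exact two-sided permutation test of 2 against 2 libraries cannot give a p below 0.333.

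Among all unigenes of a library, c35748_g1 stood at rank 213 and 182 by FPKM in drought, 1229 and 1650 in cold, and 2828 and 2900 in control. For c56750_g3 the ranks were 250 and 342 in drought, 1854 and 1613 in cold, and 3354 and 3159 in control. Within the 48 aquaporin unigenes, c35748_g1 was at rank 5 in both drought libraries, at ranks 7 and 10 in cold, and at rank 9 in both control libraries, and c56750_g3 was at rank 7 in both drought libraries, 11 and 9 in cold, and 10 in both control libraries.

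The fold changes of drought against control are a description with no test, because the study named both unigenes as raised in drought from these same libraries. On the scale of log2(FPKM + 1), c56750_g3 differed by 2.55 (SE 0.13) and c35748_g1 by 2.76 (SE 0.14). Only 0.862% of the tested unigenes had a larger fold change than c56750_g3, and 0.658% had a larger one than c35748_g1. Both values lie above the fold threshold of 2 on the log2 scale that, with an adjusted p under 0.005, defined a DEG (differentially expressed gene), a rule that 0.725% of all tested unigenes met with higher values in drought. The study's results give the same thresholds for its own DEGs in these libraries. Passing the fold threshold and standing high in rank are thus tied to how the pair was chosen.

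Both PIP1-5 unigenes rose in cold against control, with smaller fold changes than in drought. This comparison shares the control libraries from which the unigenes were named as raised in drought, so its p-values are not independent of that choice. The log2 fold change was 0.71 (SE 0.13, adjusted p = 0.00933 by limma) for c56750_g3 and 0.80 (SE 0.14, adjusted p = 0.00848 by limma) for c35748_g1, so 2 of 2 passed an adjusted p of 0.05. In this comparison 14.8% of all tested unigenes were higher at that threshold, and neither PIP1-5 unigene met the DEG rule, which 2.16% met with higher values. The fold changes were not among the most extreme, since 18.1% of tested unigenes had a larger one than c56750_g3 and 16.4% a larger one than c35748_g1. These calls rest on few libraries. Without control-1 the adjusted p was 0.0600 for c56750_g3 and 0.0516 for c35748_g1, without control-2 it was 0.0541 for c35748_g1, and without cold-2 it was 0.0539 for c56750_g3, while the fold changes stayed between 0.62 and 0.97.

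Drought against cold rests on the drought libraries from which the unigenes were named, so it is likewise given as a description with no test. The log2 fold changes were 1.83 (SE 0.13) for c56750_g3 and 1.97 (SE 0.14) for c35748_g1, both under the fold threshold of 2. A larger value than that of c56750_g3 was found for 3.46% of the tested unigenes, and a larger one than that of c35748_g1 for 2.74%. Median-of-ratios scaling between libraries lowered the values to 1.59 and 1.72 and raised those of cold against control to 0.94 and 1.02.

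No group stood apart in the ratio of the 2 unigenes to each other. The FPKM of c56750_g3 divided by that of c35748_g1 was 0.882 and 0.698 in drought, 0.727 and 1.02 in cold, and 0.880 and 0.943 in control. The libraries of the 3 groups overlap in this ratio, whose means were 0.790 ± 0.130 in drought, 0.871 ± 0.204 in cold and 0.912 ± 0.0442 in control (SD, n = 2 each). Over the 6 libraries the log2 values of the pair correlated at Pearson r = 0.988, and 70 other tested unigenes correlated more closely with c56750_g3 and 46 with c35748_g1. The points share libraries and the 3-group layout, so this is a description only.

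c35748_g1 was the sole unigene of its assembly component, whereas c56750_g3 shared its component with 4 others, all aquaporins. Its neighbour c56750_g2 had PIP1-3/PIP1-4 as best maize hit and FPKM of 378.7 and 385.16 in drought, 220.3 and 234.52 in cold, and 258.33 and 234.18 in control. It rose in drought against control (log2 fold change 0.63, SE 0.10, adjusted p = 0.0203 by limma), a call lost in 6 of 6 fits with a library left out, at adjusted p of 0.0527 to 0.124. Its cold difference of −0.11 did not pass (adjusted p = 0.422) and turned to 0.12 under median-of-ratios scaling. The vacuolar aquaporin c56750_g1 (TIP2-3) had 83.38 and 87.46 FPKM in drought, 136.5 and 126.61 in cold, and 121.19 and 97.64 in control. It passed in neither comparison with control. The remaining pair, c56750_g4 and c56750_g5 (both TIP1-2), stayed at or under 1.2 FPKM except in drought-2, where they stood at 7.13 and 6.19. Summed over its 5 unigenes the component stood at 816.59 and 778.15 FPKM in drought, 442.96 and 455.17 in cold, and 432.88 and 388.66 in control, which is 1.94 times control in drought and 1.09 times in cold, with c56750_g3 included. How far reads were divided among these related unigenes was not tested.

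The PIP1-5 pair made up a larger share of the PIP1 signal in both stresses than in control. It held 39.6% and 42.6% of the summed FPKM of the 10 PIP1 unigenes in drought, 29.7% and 27.5% in cold, and 13.2% and 14.5% in control. The summed FPKM of the 8 other PIP1 unigenes was 1144 and 956 in drought, 480 and 489 in cold, and 739 and 677 in control. In cold, PIP1-5 was thus 1.71 times its control level while the other PIP1 unigenes together were at 0.685 times theirs, and all PIP1 unigenes summed were at 0.826 times control. In drought the other PIP1 unigenes were at 1.48 times control. Of the FPKM of all 48 aquaporin unigenes, the pair held 10.3% in both drought libraries, 5.31% and 5.35% in cold, and 2.46% and 2.47% in control. The larger shares in drought are tied to how the pair was chosen, as raised in drought in these same libraries. Those in cold are set against the same controls, so all these shares are a description only.

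**Figure D2:**
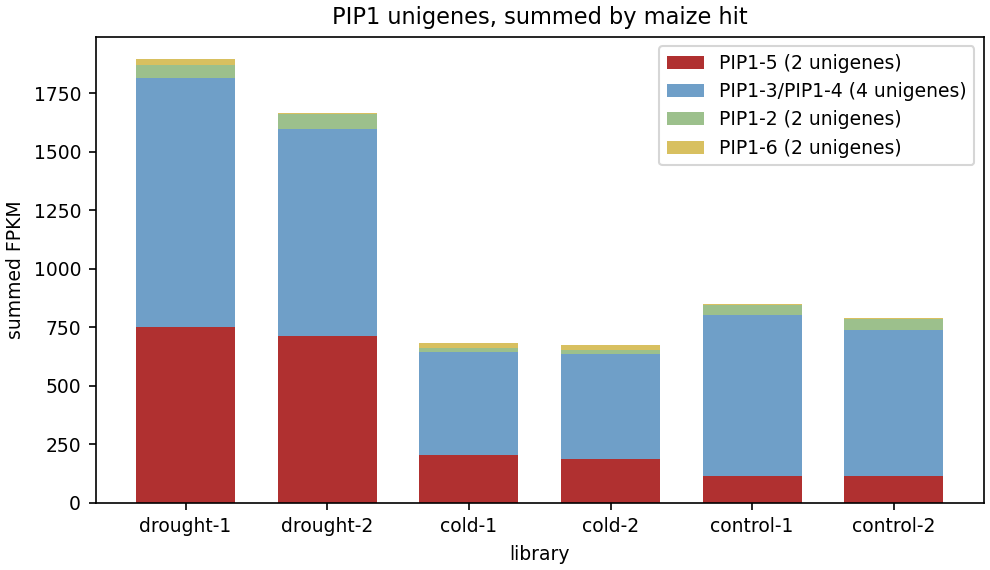
Summed FPKM (vertical axis, from 0) of the 10 PIP1 unigenes in each library, stacked by best maize hit. The PIP1-5 segment stands at 751.77 and 710.68 in drought, 202.9 and 185.34 in cold, and 112.5 and 114.65 in control, while the PIP1-3/PIP1-4 segment is the larger one in every library.

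All 8 other PIP1 unigenes passed the filter of a mean FPKM of at least 1. In drought against control, 1 of 8 passed an adjusted p of 0.05 by limma, with higher values, and the 8 had a median log2 fold change of 0.46. In cold against control, 1 was higher and 3 were lower, with a median of −0.40. The share of all tested unigenes was 5.69% higher in drought, and 14.8% higher and 22.4% lower in cold. The one with the highest mean over the 6 libraries, c54061_g1 (PIP1-3/PIP1-4), had 593.88 and 434.21 FPKM in drought, 175.24 and 166.08 in cold, where c56750_g2 was higher, and 364.31 and 335.49 in control. It fell in cold (log2 fold change −1.03, SE 0.17, adjusted p = 0.00700 by limma), which read 0.0509 without control-1 and 0.0533 without cold-2. The PIP1-2 unigene c44234_g1, a weaker match, had 44.48 and 54.5 FPKM in drought, 14.02 and 10.43 in cold, and 33.87 and 37.18 in control, and fell in cold by 1.48 on the log2 scale (SE 0.18, adjusted p = 0.00310 by limma). The second PIP1-2 unigene, c59474_g1, also fell in cold (−0.81, SE 0.22, adjusted p = 0.0312 by limma), a call lost without either control or either cold library (0.0707 to 0.144), with no filter (0.113), under median-of-ratios scaling (0.0816) and under quantile normalization (0.0509). By contrast c49788_g1 (PIP1-3/PIP1-4) gave −0.24 without passing (adjusted p = 0.277).

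The PIP1-6 unigene c26035_g1 shared the direction of the PIP1-5 pair in cold. Its FPKM was 10.21 and 3.47 in drought, 13.72 and 14.67 in cold, and 4.24 and 4.11 in control. It rose in cold (log2 fold change 1.55, SE 0.41, adjusted p = 0.0317 by limma), a call lost without either control or either cold library, at adjusted p of 0.120 to 0.148. The other PIP1-6 unigene, c2559_g1, had 14.1 and 1.82 FPKM in drought, 5.75 and 8.87 in cold, and 3.24 and 1.38 in control, so its drought libraries lay far apart and it passed in no comparison. The weakly matched c62563_g1 (PIP1-3/PIP1-4) lay between 8.15 and 18.15 FPKM over all libraries and passed in none either.

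Among the PIP2 unigenes, the partners of PIP1 channels in maize, 6 of 8 passed the filter and 3 of these passed in drought against control, all with higher values, where 5.69% of all tested unigenes were higher. In cold against control 1 was higher and 2 were lower, beside 14.8% and 22.4% of all. The most abundant, c82773_g1 (PIP2-1), had 2264.83 and 2175.1 FPKM in drought, 804.7 and 743.74 in cold, and 1209.54 and 1475.03 in control. Its log2 fold change was 0.73 in drought (SE 0.14, adjusted p = 0.0337 by limma) and −0.79 in cold (SE 0.14, adjusted p = 0.00989 by limma). c59251_g1 (PIP2-3) had 514.53 and 593.17 FPKM in drought, 91.13 and 109.27 in cold, and 210.6 and 215.13 in control, with log2 fold changes of 1.37 in drought (SE 0.13, adjusted p = 0.00463 by limma) and −1.09 in cold (SE 0.13, adjusted p = 0.00318 by limma). Both PIP2 unigenes thus lay above control in drought and below it in cold, whereas PIP1-5 was above control in both. The drought call of c82773_g1 was lost in 6 of 6 fits with a library left out, at adjusted p of 0.0909 to 0.210, with the replicate block (0.0626), in a separate fit of 4 libraries (0.150), with no variance trend (0.0762) and with either other filter (0.0520 and 0.109), and its cold call without control-2, cold-1 or cold-2, at 0.0607 to 0.0840. The drought call of c59251_g1 read 0.0512 without control-1.

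c40459_g1 (PIP2-6) had 60.97 and 54.63 FPKM in drought, 19.45 and 17.92 in cold, and 16.42 and 26.68 in control. It rose in drought (log2 fold change 1.42, SE 0.23, adjusted p = 0.0191 by limma; lost at 0.0540 to 0.139 in 5 of 6 fits with a library left out, all but that without control-2). Its cold value of −0.16 did not pass and was 0.06 under median-of-ratios scaling. c14812_g1 (PIP2-5) was the reverse case, with 14.73 and 19.08 FPKM in drought, 109.65 and 74.17 in cold, and 18.64 and 18.69 in control. It was a DEG in cold (2.21, SE 0.22, adjusted p = 0.00183 by limma), a call that held at an adjusted p of 0.05 but was past 0.005 with each library left out (0.00949 to 0.0209), with the replicate block (0.00535), no trend (0.00538), the other filters (0.00652 and 0.0203) and a separate fit (0.00956). Its drought value was −0.15 (adjusted p = 0.763). The PIP2 unigenes c45135_g1 (PIP2-1) and c20311_g1 (PIP2-6) stood at 27.9 and 20.28 FPKM in control-1 and at 0 in control-2, and passed in no comparison. The PIP2 unigenes under the filter, c49025_g2 (PIP2-4) and c107216_g1 (PIP2-5), never exceeded 1.55 FPKM.

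**Figure D3:**
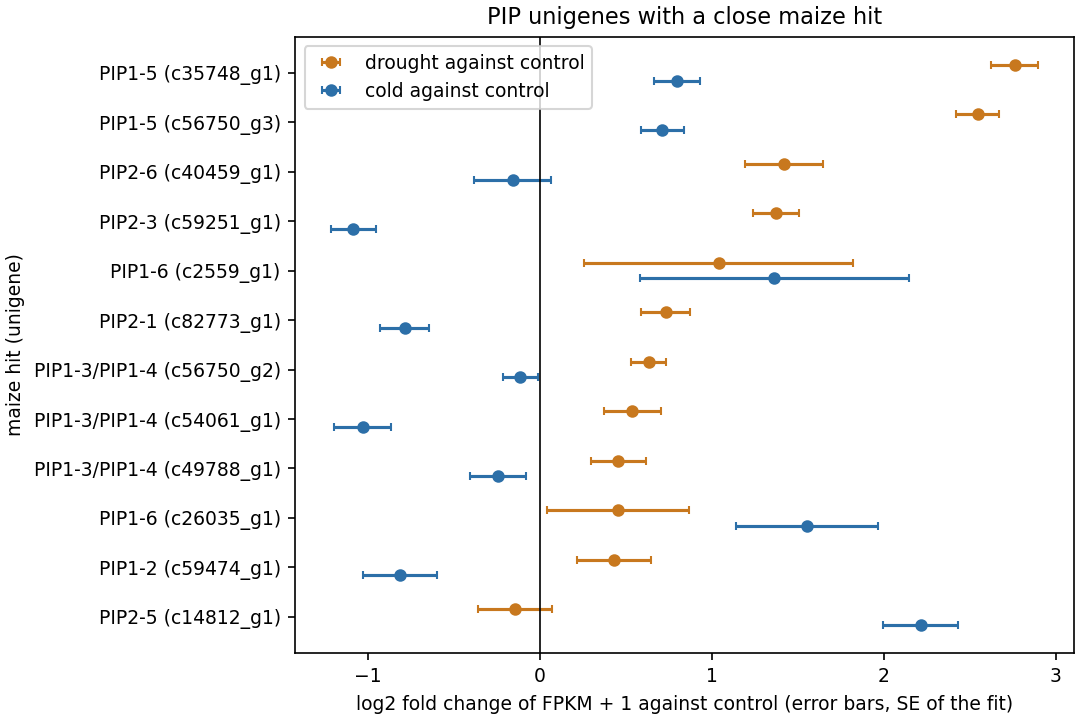
Log2 fold changes of FPKM + 1 against control (horizontal axis) in drought and in cold for the PIP1 and PIP2 unigenes whose maize hit was at least 90% identical, with standard errors of the fit. The PIP1-5 unigenes lie farthest right in drought, at 2.76 and 2.55, and right of 0 in cold, at 0.80 and 0.71. In cold PIP2-5 (c14812_g1) and the PIP1-6 unigenes c26035_g1 and c2559_g1 lie farther right, at 2.21, 1.55 and 1.36. PIP2-3 (c59251_g1) and PIP1-3/PIP1-4 (c54061_g1) lie lowest in cold, at −1.09 and −1.03.

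Over all 46 aquaporin unigenes other than PIP1-5, 36 were tested. In drought against control 5 were higher and 0 were lower at an adjusted p under 0.05, beside 5.69% higher and 2.83% lower among all tested unigenes. At an unadjusted p under 0.05 the counts were 9 higher and 2 lower, but the share of all tested unigenes at that threshold was not counted. With the replicate number as a block 1 was lower. A single aquaporin was a DEG, with higher values, beside 0.725% higher and 0.0593% lower DEGs among all. The 5 higher calls were 1 to 3 with a library left out, the lowest without control-1. The median log2 fold change was 0.14, against 0.01 over all. In cold against control 4 were higher and 8 were lower, beside 14.8% and 22.4% of all, with a median of −0.26 against −0.18. Median-of-ratios scaling gave 7 higher and 7 lower, beside 7379 higher and 5868 lower of all 38768 tested unigenes. In the main fit there were 2 DEGs, both higher, beside 2.16% higher and 1.11% lower of all. Without control-1 or cold-1 the counts were 2 higher and 5 lower. In drought against cold 13 were higher and 3 were lower, beside 23.8% and 14.2% of all, with a median of 0.45 against 0.19. Median-of-ratios scaling gave 9 higher and 5 lower here, beside 6270 higher and 7325 lower of all 38768. In the main fit there was 1 DEG in each direction, beside 1.87% higher and 1.81% lower of all. Without a library, 1 to 3 were lower, 1 of them without cold-2. In the fits without a library the DEG calls among these aquaporins numbered 0 against control, and 0 or 1 against cold.

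Outside the PIP groups, 9 of the 16 TIP unigenes were tested. Of these, 1 was higher against control in both stresses, beside 5.69% higher in drought and 14.8% higher in cold among all tested unigenes. This was c56624_g1 (TIP4-1, a vacuolar aquaporin, weakly matched), whose FPKM was 94.74 and 116.32 in drought, 132.07 and 203.13 in cold, and 10.01 and 13.76 in control. It was a DEG in drought (log2 fold change 3.06, SE 0.25, adjusted p = 0.00281 by limma) and in cold (3.69, SE 0.25, adjusted p = 0.000791 by limma). Adjusted p stayed under 0.05 in every alternative fit but exceeded 0.005 with each library left out, at 0.0177 to 0.0448 in drought and 0.00743 to 0.0140 in cold. It also exceeded 0.005 in drought in 4 other alternatives, with the highest at 0.0439 with no filter, and in cold with no filter (0.0124) and in a separate fit (0.00766). Like the PIP1-5 pair it lay above control in all 4 stressed libraries, but its cold libraries were not below its drought libraries. The most abundant TIP, c63952_g3 (TIP1-1), had 1987.17 and 1791.42 FPKM in drought, 1481.93 and 1146.88 in cold, and 1668.95 and 1576.98 in control, and passed in neither comparison with control.

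Of the NIP unigenes, 7 of 8 were tested, and 1 passed against control, with higher values in cold, beside 14.8% of all tested unigenes. This was c7101_g1 (NIP2-1, 7.2 and 9.9 FPKM in cold, 0.28 and 2.22 in control), named here after its values were seen and lost without control-1, cold-1 or cold-2 (adjusted p of 0.0738 to 0.120). The NIP with the highest mean over the 6 libraries, c61185_g6 (NIP2-2), lay between 94.94 and 119.47 FPKM in all libraries, and c51202_g1 (NIP1-1) exceeded it on average in drought and in control. All 6 SIP unigenes were tested, and 3 were lower in cold, beside 22.4% of all. Of these, c54763_g1 (SIP2-1) and c41763_g3 (SIP1-2) lost the call without control-1 (adjusted p of 0.0512 and 0.0849), and c41763_g3 also without cold-1 (0.0963). Of the 3, c63802_g3 (SIP1-1) had 38.39 and 39.43 FPKM in drought, 21.12 and 21.66 in cold, and 33.7 and 35.22 in control, and its cold log2 fold change was −0.66 (SE 0.10, adjusted p = 0.00594 by limma).

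With the PIP1-5 pair itself left out, the named unigenes whose pattern over the 6 libraries was most like each of them were sought by Pearson r of log2(FPKM + 1) among the 893 tested unigenes with a maize name in the part of the annotation used here. For c56750_g3 these were c59647_g1 (annotated only as LOC542099, r = 0.993), c53595_g1 (myo-inositol kinase, which phosphorylates inositol, r = 0.993) and c53979_g1 (beta-carotene hydroxylase, which turns beta-carotene towards zeaxanthin, r = 0.990). For c35748_g1 they were c53979_g1 again (r = 0.996), c62050_g3 (the chloroplast RNA polymerase beta' subunit, r = 0.992) and c62309_g1 (isoamylase-type starch debranching enzyme ISO3, r = 0.983). The FPKM of c53979_g1 was 18.95 and 17.84 in drought, 2.55 and 1.66 in cold, and 0.56 and 0.89 in control, the same order of groups at a far lower level. Of all tested unigenes 33 had a higher r with c56750_g3 than the first of its list, and 5 with c35748_g1. Among the other PIP unigenes r with c56750_g3 was highest for c40459_g1 (0.904) and c56750_g2 (0.900).

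Marker lists of leaf and root were read in the pooled tissue. They cannot tell a change in organ make-up from a change in expression of the marker genes. Leaf markers summed over 14 unigenes came to 9390 and 9553 FPKM in drought, 14525 and 17207 in cold, and 15236 and 14821 in control. Of the 12 tested, 9 were lower in drought against control by limma, with a median log2 fold change of −0.84, where 2.83% of all tested unigenes were lower. In cold 0 passed an adjusted p of 0.05, beside 14.8% higher and 22.4% lower of all, and 1 was lower at an unadjusted p under 0.05. For example CP26 (c49564_g1), a light-harvesting protein of photosystem II, had 1252 and 1325 FPKM in drought, 2658 and 3248 in cold, and 2538 and 2161 in control. Root markers summed over 10 unigenes came to 194 and 227 FPKM in drought, 260 and 341 in cold, and 250 and 249 in control, and 0 of 9 tested passed against control by limma in either stress, where an unadjusted p under 0.05 was met by 1 in drought and 0 in cold. How many of all tested unigenes met that unadjusted threshold was not counted. The median log2 fold change of the root markers in drought was −0.02. Much of each root sum came from c37245_g1 (phosphate transporter protein1), which lay between 123.39 and 212 FPKM. The root cap unigenes never exceeded 2.08 FPKM, and no marker of either list was at 0 in every library. The lower leaf markers moved with the drought group in which PIP1-5 was highest, and their part in the PIP1-5 result was not tested.

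**Figure D4:**
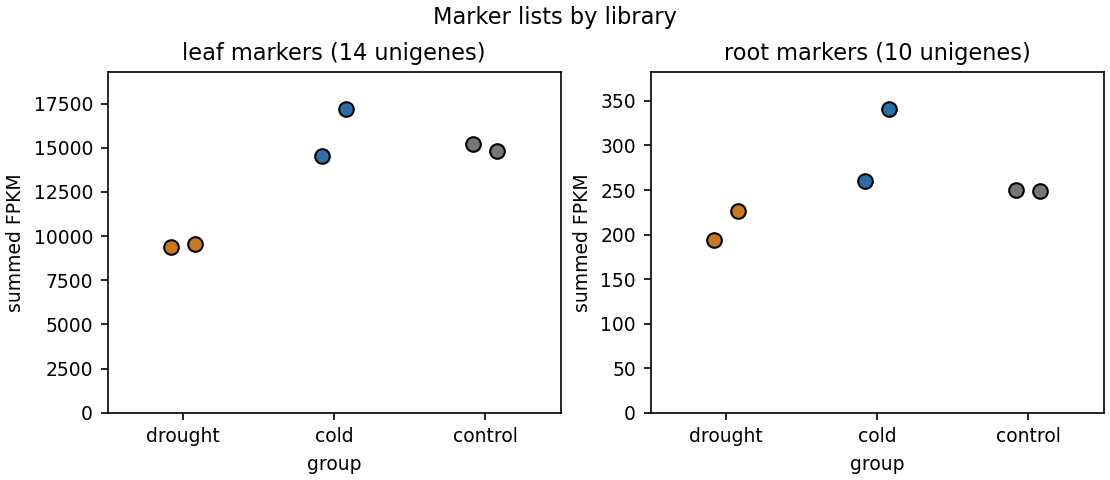
Summed FPKM (vertical axes, from 0) of the leaf marker and root marker lists in drought, cold and control, with 1 point per library. The leaf sums lie at 9390 and 9553 in drought, below all cold and control libraries. The root sums lie at 194 and 227 in drought, also below the others, with a median log2 fold change against control of −0.02.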

How the data were processed

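The authors assembled the pooled reads with Trinity, mapped each library with Bowtie 1.1.1 and estimated reads per unigene with RSEM, and the deposited values are FPKM with 2 decimals. Reads, counts and unigene lengths were not used here, so no counting interval is given. A pseudocount of 1 understates the fold changes of low unigenes. Models were fitted with limma 3.58.1 (R 4.3.3) to log2(FPKM + 1) of the 6 libraries together, with a mean-variance trend (3 residual and 2.86 prior degrees of freedom), two-sided, over the 38768 unigenes that averaged at least 1 FPKM, with Benjamini-Hochberg adjustment in each comparison. P-values measure the spread between pools of seedlings, 2 per group. On simulated drought data over 38768 unigenes, 41 of 100 unigenes changed by 1 on the log2 scale and 98 of 100 changed by 3 passed an adjusted p of 0.05. Only these unigenes were changed, none of low control FPKM, with normal noise of the fitted spread. The real drought comparison had 2205 higher and 1097 lower calls, so these rates need not hold there or for low unigenes. Tables and plots used Python 3.11.15, pandas 2.3.3, numpy 2.4.6 and matplotlib 3.10.9.

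The members and the lists were chosen with earlier results of these data known. Named were the PIP1-5 pair, the rest of component c56750, all PIP1 and PIP2 unigenes, aquaporin DEGs, the most abundant unigene of each subfamily and the 3 named unigenes most like each member. Names came from the study's annotation of 1999 unigenes, a part of all its annotated unigenes. Alternatives varied the pseudocount, filter, scaling, samples in the fit, variance trend, replicate block, aquaporin list and each library. Sequences of the unigenes were not analysed here.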

Additional observations from a re-analysis of the deposited data

Results flagged for a closer look

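A difference between the drought and the cold effect passed an adjusted p of 0.05 (limma, drought against cold, in which the control libraries cancel) for 16 of the 36 tested aquaporin unigenes other than PIP1-5, beside 23.8% higher and 14.2% lower of all tested unigenes. For the PIP1-5 pair, named from the drought libraries and so not tested, the log2 fold change was 1.83 (c56750_g3) and 1.97 (c35748_g1), with all drought and cold libraries above both controls. For 9 of the 16 others, both drought libraries lay above and both cold libraries below both controls, which holds for neither PIP1-5 unigene. These were c59251_g1 (PIP2-3) with 2.46, c44234_g1 (PIP1-2) with 1.94, c54061_g1 (PIP1-3/PIP1-4) with 1.57, c82773_g1 (PIP2-1) with 1.52, c59474_g1 (PIP1-2) with 1.25, c63802_g3 (SIP1-1) with 0.83, c41763_g1 (SIP1-2) with 0.76, c49788_g1 (PIP1-3/PIP1-4) with 0.70 and c63952_g3 (TIP1-1) with 0.53. For 2 the sides were turned, c61185_g3 (NIP2-3) with −1.57 and c56750_g1 (TIP2-3) with −0.62. The other 5 had at least 1 overlap with control, namely c40459_g1 (PIP2-6) with 1.58, c41763_g3 (SIP1-2) with 0.81, c56750_g2 (PIP1-3/PIP1-4) with 0.75, c54763_g1 (SIP2-1) with 0.69 and c14812_g1 (PIP2-5) with −2.36. The call of c63952_g3 was lost in 6 of 6 fits with a library left out, at adjusted p of 0.0643 to 0.265, that of c41763_g1 in 5, those of c41763_g3 and c56750_g1 in 4 and that of c49788_g1 in 3. The calls of c59474_g1 and c61185_g3 were lost without cold-2 (0.0557 and 0.0604) and that of c54763_g1 without drought-2 (0.0548). The sides were read from FPKM without scaling between libraries, for unigenes already picked by drought against cold. Their share over all tested unigenes was not counted. Median-of-ratios scaling ended the drought against cold calls of c63952_g3 (0.231), c49788_g1 (0.0958), c41763_g3 (0.0872) and c41763_g1 (0.0811, adjusted p by limma). No explanation of these differences was tested.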

How the results depend on the processing

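The PIP1-5 unigenes lay above control in cold under every alternative run. Every run used control libraries from which the pair was named as raised in drought, so this direction is not independent of that choice. Their direction in drought was set by how they were chosen. Leaving out single libraries gave log2 fold changes of 2.41 to 2.68 (c56750_g3) in drought against control, and of 0.65 to 0.78 (c56750_g3) and 0.62 to 0.97 (c35748_g1) in cold against control, where each unigene lost its call in 2 of 6 such fits. A lone library of a group was then taken to vary like the others. Under the other alternatives the adjusted p for cold against control reached at most 0.0466 (c56750_g3) and 0.0456 (c35748_g1).

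The ratio of the summed pair was moved by median-of-ratios scaling to 2.00 for cold against control and 3.19 for drought against cold. Summing all 10 PIP1 unigenes gave 2.17 for drought against control, 0.826 for cold against control, a turn of direction, and 2.62 for drought against cold. By construction this comes from the other PIP1 unigenes in that sum.

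Counts of other aquaporins moved more, and so did calls over all unigenes at an adjusted p under 0.05. In drought against control 2205 of all were higher in the main fit, 1429 in a separate fit and 1569 with no trend. In cold against control 5720 were higher, 4292 with no filter and 7379 with median-of-ratios scaling. In drought against cold 5517 were lower, 4192 with no filter and 7325 with that scaling. The fits with no filter held 176534 unigenes, the others 38768. Higher calls in drought against control were 2 with no filter, 2 in a separate fit of 4 libraries, 3 with no variance trend and 1 to 3 with a library left out. Higher calls in cold against control were 2 with no filter, 2 among close hits, 7 with median-of-ratios scaling and 2 to 4 with a library left out, and lower calls 5 to 9. Lower calls in drought against cold were 1 with no filter, 5 with median-of-ratios scaling and 1 to 3 with a library left out. DEG counts in drought against control were 0 with no filter, with FPKM of at least 1 in 2 libraries, in a separate fit, with no trend, among close hits and with any library left out. In cold against control they were 0 with no filter, in a separate fit and with any library left out, and 1 with the other filter, no trend, close hits or the replicate block. In drought against cold they were 0 with no filter, 1 with the other filter or in a separate fit, and 0 to 1 with a library left out. Over all tested unigenes the DEGs in drought against control numbered 281 higher and 23 lower, and 0 with no filter (where 455 were higher at an adjusted p under 0.05), in a separate fit and with any library left out. They were 86 and 4 with the other filter, 158 and 9 with the replicate block and 143 and 13 with no trend. Except where stated, the cause was not tested.

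Libraries with the same replicate number had deviations from their group means that hardly correlated over the tested unigenes, at −0.03, −0.01 and 0.04. This cannot show that they shared no batch, since an effect on some unigenes could be missed. With the replicate block, c56750_g3 and c35748_g1 kept log2 fold changes of 0.71 and 0.80 in cold against control (adjusted p = 0.0200 and 0.0156 by limma) and of 1.83 and 1.97 in drought against cold, and among other aquaporins 1 was lower in drought against control. The block ended the calls of c82773_g1 in drought against control (0.0626) and of c41763_g3 in drought against cold (0.0515). Values that had passed no test and turned sign were c56750_g2 in cold (0.12) and c40459_g1 in cold (0.060) under median-of-ratios scaling, c40459_g1 in cold with a library left out (−0.49 to 0.18) and c14812_g1 in drought (−0.32 to 0.030). The table holds no read counts per unigene, so the precision of single low values is unknown.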
